A study of Mus musculus with 9 samples.

Results

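The proteasome genes of mouse CD4+ T cells are described here across 9 bulk RNA-seq libraries. The members are all genes whose symbol starts with Psma, Psmb, Psmc, Psmd, Psme or Psmg followed by a digit, pseudogene names left out, and there are 50 of them among 25160 genes in the table. By role they are 7 alpha and 7 standard beta subunits of the core particle, 3 immunoproteasome catalytic subunits, 2 tissue-restricted core subunits, 6 ATPases and 11 other subunits of the regulatory particle, 3 chaperones of the regulatory particle, 5 activator genes, 4 chaperones of the core particle, and 2 genes that the spelling rule takes but that encode no proteasome part (Psmc3ip and Psme3ip1). The expression filter kept 48 of the 50, and the others, Psma8 and Psmb11, are given below by their counts. Of the members, 36 had 1 transcript in the table and 14 had several, of which the one with the highest total was used.

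The cells were naive CD4+ T cells sorted from spleens of C57BL/6 mice and cultured on plates coated with 1 µg/ml of anti-CD3e, an antibody that triggers the T cell receptor complex and that all 3 groups received. Wild-type cells were cultured with 19 µg/ml of isotype control antibody (3 libraries) or with 19 µg/ml of anti-CD40L, an antibody against the ligand of CD40 (3 libraries), and cells with the genotype label cre, titled KO, received the isotype antibody (3 libraries). The design text describes the latter as T cell-specific CD40L deficiency, while the sources used here do not give the promoter driving Cre, the ages of the mice, the culture time or whether each library is from a mouse of its own. The p-values below thus describe library-to-library spread, and that spread may be technical.

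The proteasome degrades proteins that carry ubiquitin chains. Its core particle is a barrel in which rings of alpha subunits gate the entrance and rings of beta subunits hold the active sites, and a regulatory particle with a ring of ATPases recognises, unfolds and feeds in the substrates. In lymphocytes and in cells exposed to interferon gamma, the catalytic beta subunits can be replaced by immunoproteasome subunits, whose cleavage preferences favour peptides for MHC class I, and activated T cells are known to raise proteasome activity.

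The gene targeted in the KO label was examined first. Cd40lg was at 142, 154 and 189 CPM (counts scaled to a common library size with TMM factors) in wild-type isotype libraries, at 109, 132 and 163 CPM on anti-CD40L and at 145, 136 and 150 CPM in the libraries labelled KO. The KO-labelled libraries lay within the wild-type spread or just below it (log2 fold change -0.17, SE 0.13, adjusted p = 0.935 by the quasi-likelihood F test of edgeR over all genes, with adjustment after Benjamini and Hochberg, which is meant by edgeR below). The sources used here do not say which exons were deleted, so this level does not check the label, and every KO direction below rests on the label alone. Library totals ran from 5316482 to 15565711 counts. Anti-CD40L replicate 3 had the lowest total and stood apart from the other libraries, with a count for 11673 genes against 14290 to 17428 elsewhere. T cell markers summed to 3892 to 4404 CPM in every library (7 of 8 listed genes were found). Summed B cell markers (8 genes) were at 13.2 to 38.4 CPM in isotype-treated wild type, 1.72 to 13.6 CPM on anti-CD40L and 7.32 to 17.6 CPM in KO-labelled libraries. These genes did not all move together. Fcer2a was at 13.1, 16.4 and 5.51 CPM in isotype-treated wild type and at most 1.52 CPM in any other library. Of 6 tested, 5 were negative and 1 (Cd79b) positive on anti-CD40L. In KO-labelled libraries 4 were negative and 2 (Cd79a and Cd79b) positive. A few B cell transcripts were thus present in each group, and their part in the results was not tested. In bulk RNA, fewer cells of a type and less RNA per cell cannot be told apart.

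Of 48 tested members, 5 rose and 0 fell against the isotype antibody: Psma3, Psmd1, Psmd14, Psme4 and Psmg2 (edgeR, called at an adjusted p under 0.05). Over all 11256 genes tested, 9.37% were called in either direction, 2.91% were called higher and 6.46% lower, against 5 of 48 members here. The members' median log2 fold change was 0.13, that of all genes -0.01, and 36 members were positive and 12 negative. In 20 members all 3 anti-CD40L libraries lay above all 3 isotype libraries, a pattern that 15.4% of all genes showed, and in 3 members (Psmb8, Psmb10 and Psmg4) they lay below, as in 17.2% of all genes. Over 19 alternative settings, the count of positive members ranged from 35 to 38. It was 38, with a median of 0.09, without anti-CD40L replicate 3, the library of lowest depth.

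**Figure D1:**
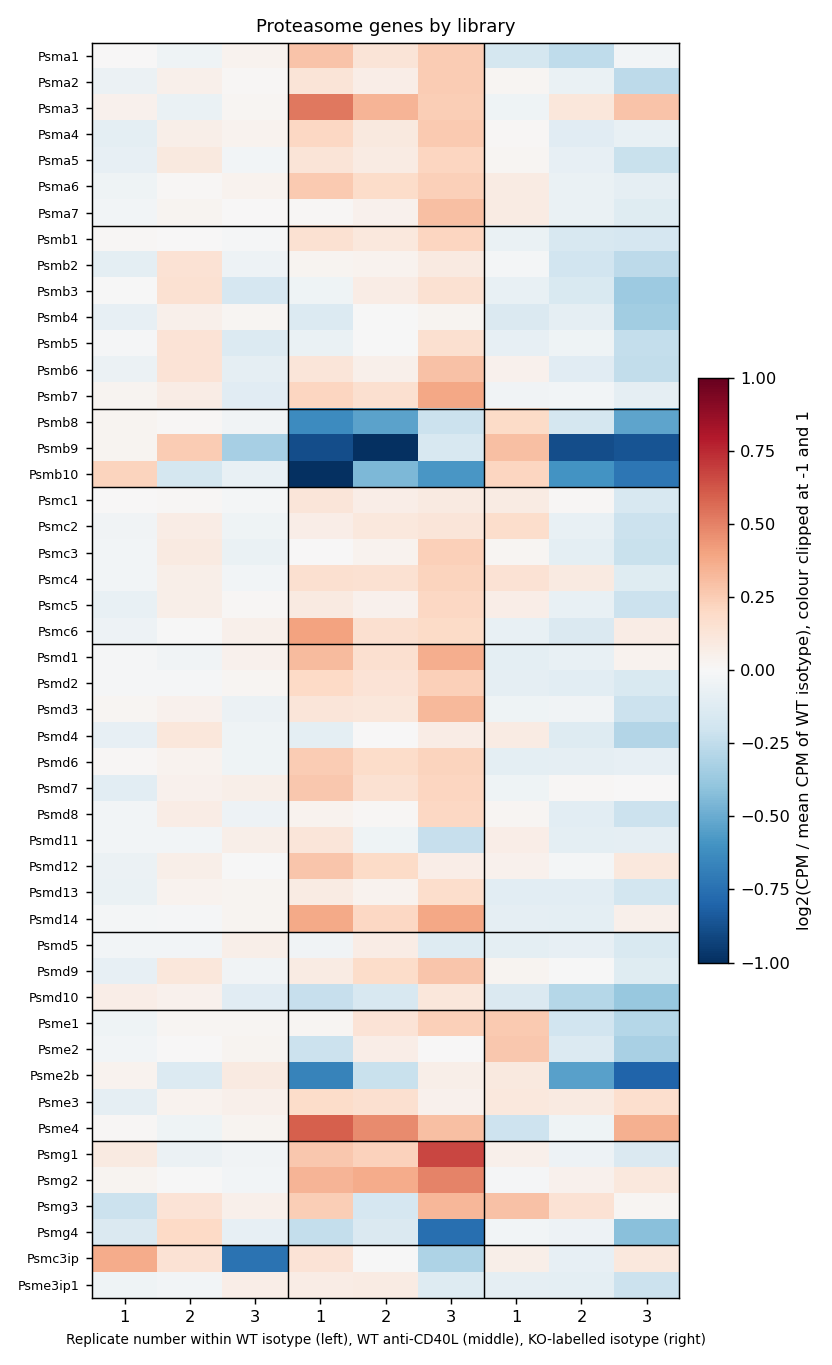
Level of each of the 48 tested members (vertical axis, grouped by role) in each library (horizontal axis), as log2 of CPM over the wild-type isotype mean, coloured from blue (lower) to red (higher), with colours clipped at -1 and 1. The anti-CD40L columns are mostly red for standard subunits and blue for Psmb8, Psmb9 and Psmb10, and KO-labelled replicate 3 is blue for most members.

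The 31 standard subunits are those of the alpha and beta rings and of the regulatory particle without its chaperones. Their summed level was 7197, 7321 and 7591 CPM in the wild-type isotype libraries in rising order, 7909, 8222 and 8550 CPM on anti-CD40L and 6750, 6981 and 7341 CPM in the KO-labelled libraries. All 3 anti-CD40L sums lay above the other 6. Against the isotype antibody 28 of the 31 had a positive log2 fold change, with a median of 0.15, 3 rose (Psma3, Psmd1 and Psmd14), where 2.91% of all genes were called higher, and in 17 every anti-CD40L library was above every isotype library, as in 15.4% of all genes. Anti-CD40L replicate 3 was the highest of the 9 libraries for 17 of these 31 genes, and replicate 1 for 9. Of all tested genes, replicate 1 was highest for 15.4%. Replicate 3 was highest for 23.5% of all tested genes and lowest for 29.98%, and the part of its low depth in these values was not tested. Over the 19 alternatives, 26 to 30 of the 31 were positive.

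Among the alpha subunits, which form the outer rings and the gate of the core particle, all 7 had positive log2 fold changes, from 0.12 for Psma7 to 0.38 for Psma3. Psma3 (chr12:70969283-70995877, GRCm38, the assembly behind mm10) was at 161, 149 and 158 CPM in isotype-treated wild type, at 225, 197 and 185 CPM on anti-CD40L and at 151, 169 and 190 CPM in KO-labelled libraries. The anti-CD40L libraries lay above all wild-type isotype libraries, while KO-labelled replicate 3 reached their lower end. Psma3 rose 1.30-fold on anti-CD40L (log2 fold change 0.38, SE 0.10; edgeR adjusted p = 0.0303). Psma1 was at 224, 217 and 229 CPM in isotype-treated wild type, at 272, 244 and 267 CPM on anti-CD40L and at 198, 187 and 219 CPM in KO-labelled libraries. Its anti-CD40L libraries were the 3 highest of the 9, and its change against wild-type isotype was not called (log2 fold change 0.22, SE 0.08; edgeR adjusted p = 0.1).

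The 7 standard beta subunits had a median log2 fold change on anti-CD40L of 0.06, a range of -0.04 to 0.25 and 0 called. Psmb5, Psmb6 and Psmb7 encode the chymotrypsin-like, caspase-like and trypsin-like catalytic subunits. Psmb5 was at 111, 123 and 102 CPM in isotype-treated wild type, at 108, 112 and 126 CPM on anti-CD40L and at 106, 109 and 95.4 CPM in KO-labelled libraries. All 3 groups overlapped (log2 fold change on anti-CD40L 0.03, SE 0.10). Psmb6 was at 185, 211 and 181 CPM in isotype-treated wild type, at 209, 199 and 235 CPM on anti-CD40L and at 198, 178 and 162 CPM in KO-labelled libraries, and the wild-type groups overlapped too (log2 fold change 0.15, SE 0.10). Psmb7 was at 171, 177 and 155 CPM in isotype-treated wild type, at 194, 188 and 220 CPM on anti-CD40L and at 164, 164 and 158 CPM in KO-labelled libraries. For Psmb7 every anti-CD40L library was above every isotype library, without a call against wild type (log2 fold change 0.25, SE 0.08; edgeR adjusted p = 0.0716). Psmb5 shares 109 exon bases with the miRNA gene Mir686 on its own strand. Psmb7 shares 405 exon bases with Nek6 on the opposite strand, and the sources used here do not say whether counting used strand.

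In the regulatory particle, the 6 ATPase genes (Psmc1 to Psmc6) all had positive log2 fold changes on anti-CD40L, from 0.09 to 0.26, with 0 called. Of the 11 other subunits 9 were positive and 2 rose. Psmd14 (chr2:61711694-61800376, GRCm38) encodes the deubiquitinase that removes ubiquitin chains from substrates as they enter. It was at 225, 227 and 233 CPM in isotype-treated wild type, at 297, 264 and 299 CPM on anti-CD40L and at 215, 214 and 237 CPM in KO-labelled libraries. The 3 anti-CD40L libraries were above the other 6, and Psmd14 rose 1.25-fold against wild-type isotype (log2 fold change 0.32, SE 0.08; edgeR adjusted p = 0.0214). Psmd1 (chr1:86064619-86139295, GRCm38), a large scaffold subunit that binds ubiquitin receptors, was at 444, 439 and 463 CPM in isotype-treated wild type, at 557, 501 and 577 CPM on anti-CD40L and at 420, 426 and 459 CPM in KO-labelled libraries. Here too the anti-CD40L libraries stood above the rest (log2 fold change 0.28, SE 0.08; edgeR adjusted p = 0.0405). Psmd1 shares 252 exon bases with Htr2b on the opposite strand and 301 with Gm21972 on its own. Psmd4, a ubiquitin receptor, was at 180, 206 and 185 CPM in isotype-treated wild type, at 178, 190 and 201 CPM on anti-CD40L and at 201, 174 and 155 CPM in KO-labelled libraries, with all groups overlapping (log2 fold change on anti-CD40L -0.01, SE 0.10).

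The activators are alternative caps of the core particle. Psme4 (chr11:30771775-30881150, GRCm38) encodes PA200, a cap linked to the degradation of histones. It was at 130, 125 and 131 CPM in isotype-treated wild type, at 195, 179 and 159 CPM on anti-CD40L and at 112, 125 and 165 CPM in KO-labelled libraries. The anti-CD40L libraries lay above wild-type isotype, and KO-labelled replicate 3 lay among them. Psme4 rose 1.38-fold, the largest fold among the members called in this comparison (log2 fold change 0.46, SE 0.13; edgeR adjusted p = 0.0367). Psme3, the nuclear PA28 gamma cap, was at 561, 610 and 620 CPM in isotype-treated wild type, 679, 669 and 616 CPM on anti-CD40L and 642, 637 and 672 CPM in KO-labelled libraries. It was not called (log2 fold change on anti-CD40L 0.13, SE 0.08).

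Psme1 and Psme2 encode the interferon-inducible PA28 alpha and beta caps, which act with the immunoproteasome. Psme1 was at 330, 344 and 345 CPM in isotype-treated wild type, at 344, 372 and 400.3 CPM on anti-CD40L and at 407, 297 and 279 CPM in KO-labelled libraries. Psme2 was at 117, 119 and 121 CPM in isotype-treated wild type, at 103, 125 and 120 CPM on anti-CD40L and at 144, 108 and 95.1 CPM in KO-labelled libraries. For both genes the KO-labelled group spanned the wild-type values, with its replicate 1 the highest of all 9 libraries. The log2 fold changes on anti-CD40L were 0.13 (SE 0.12) for Psme1 and -0.04 (SE 0.13) for Psme2. Psme2b, a near copy of Psme2, was at 61.5, 54.7 and 64.1 CPM in isotype-treated wild type, at 37.9, 51.5 and 62.5 CPM on anti-CD40L and at 64.2, 41.2 and 34.5 CPM in KO-labelled libraries. Over 794 aligned bases of their GENCODE transcripts, Psme2 and Psme2b were 99.4% identical, so the division of reads between them is uncertain.

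Of the 4 chaperones that build the core particle, 3 were positive on anti-CD40L. Psmg1 and Psmg2 work as a pair that assembles the alpha ring. Psmg2 was at 53.9, 52.8 and 51.7 CPM in isotype-treated wild type, at 67.0, 68.4 and 74.7 CPM on anti-CD40L and at 52.4, 54.3 and 56.9 CPM in KO-labelled libraries. The 3 anti-CD40L libraries were clear of the other 6, and Psmg2 rose 1.32-fold (log2 fold change 0.40, SE 0.09; edgeR adjusted p = 0.0150). Psmg1 was at 48.4, 43.8 and 44.5 CPM in isotype-treated wild type, at 54.9, 53.3 and 72.2 CPM on anti-CD40L and at 47.1, 43.9 and 41.2 CPM in KO-labelled libraries. Its anti-CD40L libraries were again the 3 highest, with replicate 3 the highest, and the change was not called (log2 fold change 0.39, SE 0.12; edgeR adjusted p = 0.0652). Psmg3 and Psmg4 form a second chaperone pair. Psmg3 was at 19.4, 24.7 and 23.2 CPM in isotype-treated wild type, at 26.5, 19.98 and 28.3 CPM on anti-CD40L and at 27.4, 24.8 and 22.7 CPM in KO-labelled libraries (log2 fold change on anti-CD40L 0.15, SE 0.16). Psmg4 was at 24.2, 30.7 and 25.2 CPM in isotype-treated wild type, at 22.6, 24.1 and 15.9 CPM on anti-CD40L and at 26.2, 25.8 and 20.04 CPM in KO-labelled libraries. The wild-type groups overlapped for Psmg3, while for Psmg4 the anti-CD40L libraries were the lower ones, without a call (log2 fold change -0.34, SE 0.18). Psmg3 shares 280 exon bases with Gm26938 on its own strand.

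The chaperones of the regulatory particle, which hold its ATPases during assembly, gave 0 calls. Psmd5 was at 62.7, 62.7 and 66.8 CPM in isotype-treated wild type, at 62.4, 67.5 and 58.7 CPM on anti-CD40L and at 59.7, 60.4 and 57.5 CPM in KO-labelled libraries. Psmd9 was at 26.0, 29.7 and 27.0 CPM in isotype-treated wild type, at 29.1, 31.2 and 33.4 CPM on anti-CD40L and at 28.1, 27.4 and 25.4 CPM in KO-labelled libraries. Psmd10, or gankyrin, was at 35.0, 34.4 and 30.97 CPM in isotype-treated wild type, at 28.5, 30.02 and 36.1 CPM on anti-CD40L and at 30.3, 27.4 and 25.8 CPM in KO-labelled libraries. The wild-type groups overlapped for all 3, with log2 fold changes on anti-CD40L of -0.02 (SE 0.09), 0.18 (SE 0.12) and -0.10 (SE 0.13). Psmd9 shares 1849 exon bases with Gm26745, a lincRNA gene on the opposite strand.

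The calls on anti-CD40L depended on single libraries. Without wild-type isotype replicate 2 or replicate 3, 0 members were called, and without wild-type isotype replicate 1 or anti-CD40L replicate 1 only Psmg2 was (edgeR). Without KO-labelled replicate 2, which serves here only to estimate the spread, Psmd14 and Psmg2 remained.

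**Figure D2:**
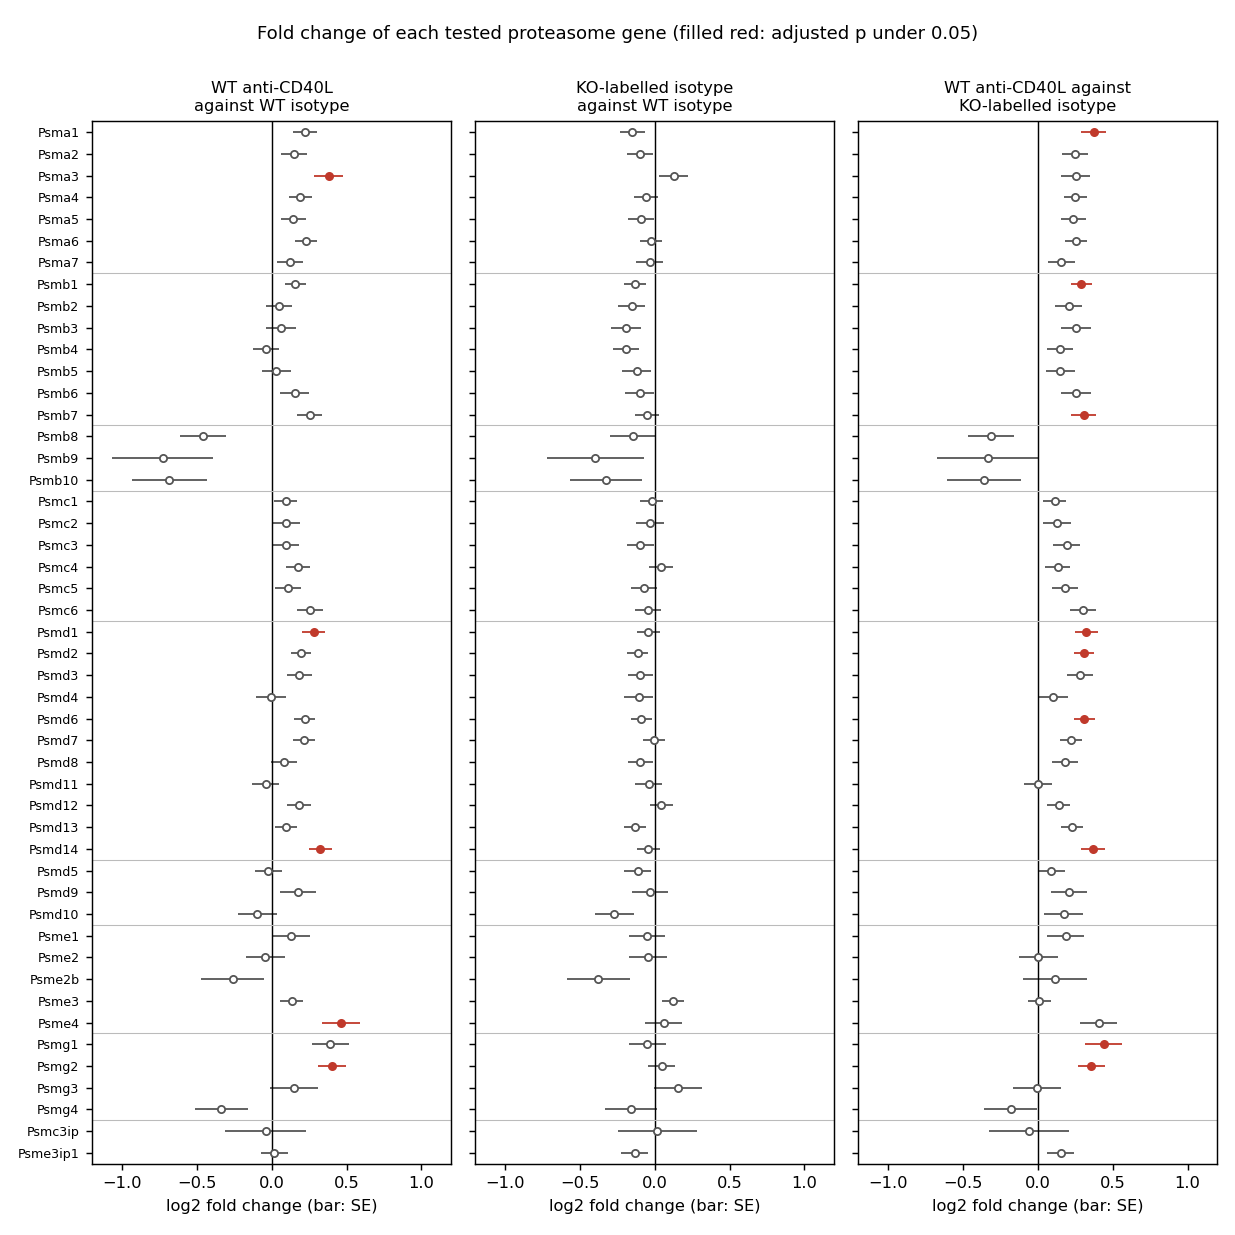
Log2 fold change (horizontal axis) with its SE (bars) of each of the 48 tested members (vertical axis, grouped by role) in the 3 comparisons, with called genes filled red. Standard subunits lie mostly right of 0 on anti-CD40L and left of 0 in KO-labelled libraries, and Psmb8, Psmb9 and Psmb10 lie left of 0 in all 3 panels.

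All 3 immunoproteasome subunits had negative log2 fold changes on anti-CD40L in the fit and in each of the 19 alternatives, with 0 called in the fit. Psmb8 (LMP7) takes the place of Psmb5, Psmb9 (LMP2) that of Psmb6 and Psmb10 (MECL-1) that of Psmb7. Psmb8 was at 109, 108 and 105 CPM in isotype-treated wild type, at 69.2, 74.1 and 92.3 CPM on anti-CD40L and at 123, 94.8 and 74.3 CPM in KO-labelled libraries. The wild-type groups did not overlap, and the KO-labelled libraries ran from the anti-CD40L range to above every wild-type library. The log2 fold change on anti-CD40L was -0.46 (SE 0.16) and was not called (edgeR adjusted p = 0.081). Psmb9 was at 16.5, 19.3 and 12.8 CPM in isotype-treated wild type, at 8.78, 6.998 and 14.5 CPM on anti-CD40L and at 19.9, 8.78 and 8.91 CPM in KO-labelled libraries. Anti-CD40L replicate 3 overlapped the isotype libraries (log2 fold change -0.73, SE 0.34; edgeR adjusted p = 0.191). Psmb10 was at 25.1, 19.0 and 20.4 CPM in isotype-treated wild type, at 10.4, 15.7 and 14.3 CPM on anti-CD40L and at 24.9, 14.2 and 13.04 CPM in KO-labelled libraries. Its wild-type groups did not overlap (log2 fold change -0.68, SE 0.25; edgeR adjusted p = 0.101).

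Psmb9 and Psmb10 rest on fewer reads than the standard subunits, while Psmb8 is near Psmb5 (means of 107 and 112 CPM in wild-type isotype). Psmb9 had 69 to 203 counts per library and Psmb10 had 75 to 280, against 483 to 1295 for Psmb8. Psmb9 shares 212 exon bases with Tap1 and Psmb8 shares 498 with the antisense gene Gm20496, both on the opposite strand. Several alternatives called immunoproteasome genes lower on anti-CD40L. Psmb8 and Psmb10 were called by limma-voom with quality weights, by edgeR without the expression filter, which also called Psmb9, and without KO-labelled replicate 1. Psmb8 was also called when only the 2 wild-type groups were fitted and without KO-labelled replicate 3. DESeq2, which called 12 members in this comparison, called none of the 3.

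**Figure D3:**
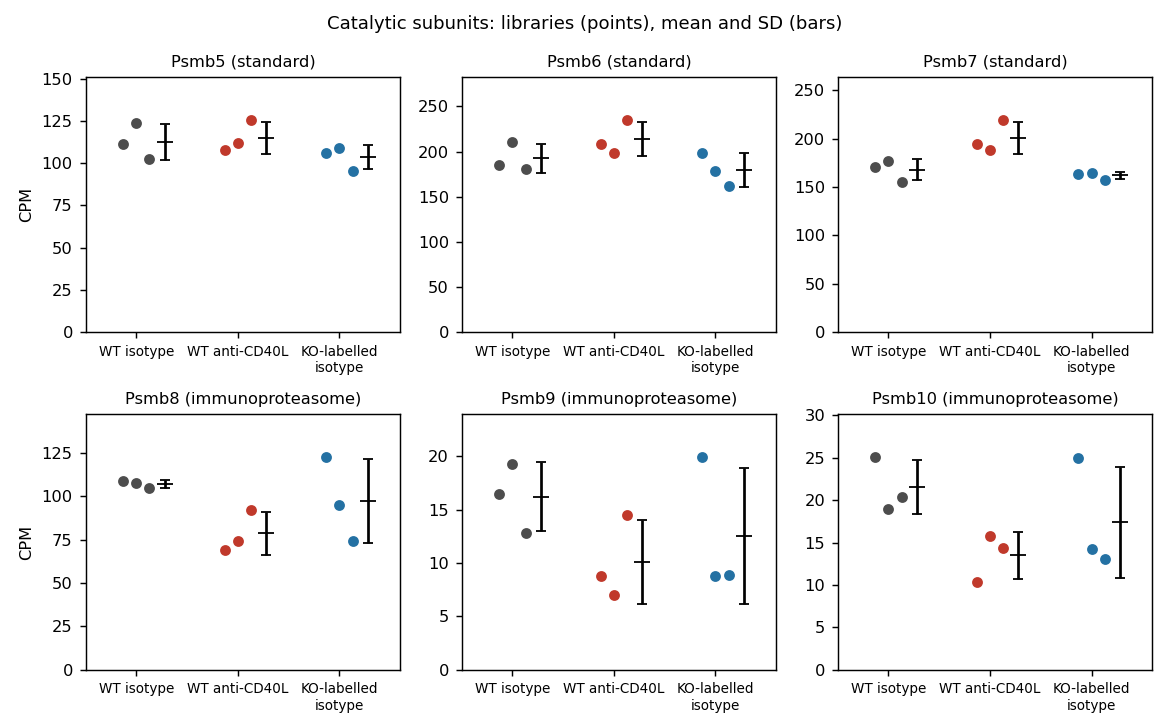
CPM (vertical axis, from 0) of the 3 standard catalytic subunits (top) and their immunoproteasome counterparts (bottom) in each library by group, with mean and SD over 3 libraries as bars. Psmb8 and Psmb10 are lower in all anti-CD40L libraries than in wild-type isotype, Psmb5 overlaps, and KO-labelled replicate 1 is the highest KO-labelled library for all 3 immunoproteasome genes.

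The ratio of each immunoproteasome subunit to the standard subunit it replaces compares both within a library, as CPM per kilobase of transcript, and does not depend on the scaling between libraries. Psmb8/Psmb5 was 0.541, 0.482 and 0.565 in wild-type isotype, 0.355, 0.366 and 0.405 on anti-CD40L and 0.637, 0.481 and 0.430 in KO-labelled libraries. All anti-CD40L ratios lay below the other 6. Psmb9/Psmb6 was 0.0526, 0.0539 and 0.0419 in wild-type isotype, 0.0248, 0.0208 and 0.0364 on anti-CD40L and 0.0593, 0.0291 and 0.0325 in KO-labelled libraries. Psmb10/Psmb7 was 0.130, 0.0950 and 0.116 in wild-type isotype, 0.0473, 0.0741 and 0.0578 on anti-CD40L and 0.135, 0.0764 and 0.0731 in KO-labelled libraries. In both pairs the wild-type groups did not overlap, while KO-labelled replicate 1 was near or above wild-type isotype and the other KO-labelled replicates were lower. The differences on anti-CD40L were -0.49, -0.89 and -0.94 on the log2 scale. Each had an exact two-sided permutation p of 0.1, the smallest that 3 against 3 libraries can give, and a Benjamini-Hochberg adjusted p of 0.225 over 9 such tests. Psmb8/Psmb5 averaged 0.529 in wild-type isotype (SD 0.0427, n = 3) and 0.376 on anti-CD40L (SD 0.0264, n = 3). The level of each ratio rests on the annotated transcript lengths, while its difference between groups does not.

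**Figure D4:**
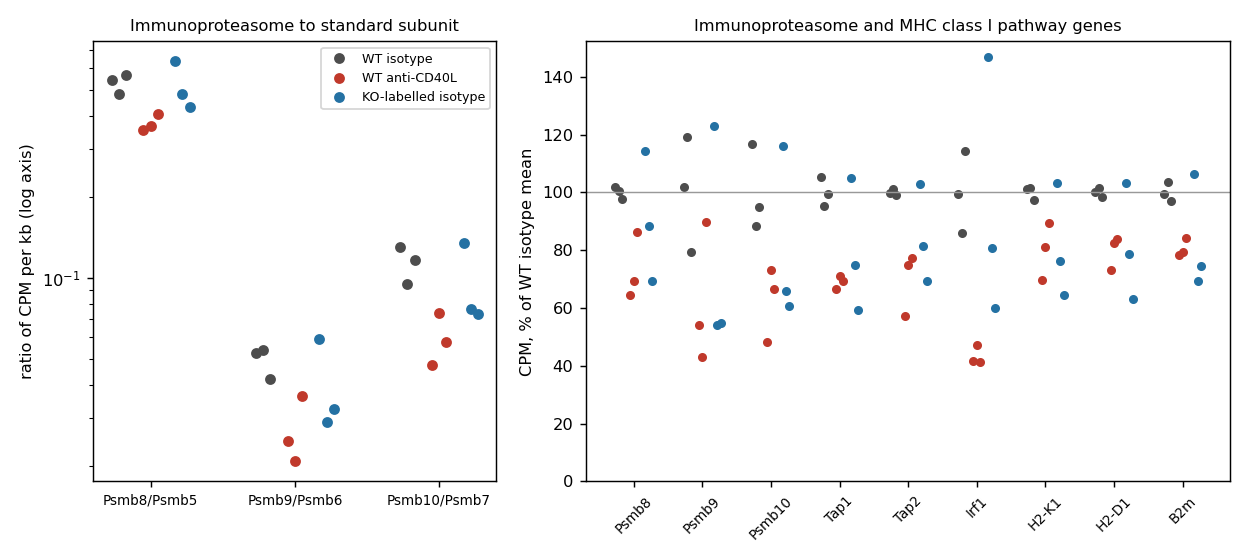
Left, ratio of each immunoproteasome subunit to its standard counterpart in CPM per kilobase (log axis), by library and group. Right, CPM of immunoproteasome and MHC class I pathway genes as a percentage of the wild-type isotype mean, where all 3 anti-CD40L libraries lie under 90% for each of the 9 genes plotted (Psmb8, Psmb9, Psmb10, Tap1, Tap2, Irf1, H2-K1, H2-D1 and B2m) and KO-labelled replicate 1 (uppermost blue point) lies above the other KO-labelled libraries.

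Psmb8 and Psmb9 lie in the MHC region next to the peptide transporter genes, with Psmb9 at chr17:34182030-34187330, Tap1 at chr17:34187556-34197225, Psmb8 at chr17:34198195-34201454 and Tap2 at chr17:34204479-34216321 (GRCm38). Of 17 tested genes of MHC class I peptide loading and its regulators, 3 fell on anti-CD40L and 0 rose, where 6.46% of all genes were called lower. The list's median log2 fold change was -0.31, that of all genes -0.01. Irf1, a transcription factor that drives these genes after interferon, was at 90.1, 77.7 and 103 CPM in isotype-treated wild type, at 37.6, 42.8 and 37.4 CPM on anti-CD40L and at 133, 72.9 and 54.1 CPM in KO-labelled libraries. The anti-CD40L libraries were the 3 lowest of the 9, with KO-labelled replicate 3 next, and Irf1 fell by 1.198 on the log2 scale (SE 0.25; edgeR adjusted p = 0.0107). Tap1, at 136, 123 and 128 CPM in isotype-treated wild type and 86.0, 91.5 and 89.6 CPM on anti-CD40L, fell by 0.54 (SE 0.15), and Tap2 fell by 0.53 (SE 0.14; edgeR adjusted p = 0.0468 and 0.0332). Nlrc5, the transactivator of class I genes, was not called (log2 fold change -0.26, SE 0.18).

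Among KO-labelled libraries, replicate 1 held the highest values of Irf1, Tap1 and Tap2. This was not particular to these genes, as replicate 1 was also the highest of the 3 for 31 of the 48 tested members. The same held for 37.3% of all tested genes. It had 133 CPM of Irf1 against 72.9 and 54.1 in the others, and 135 CPM of Tap1 against 96.8 and 76.7. The same library had the highest summed myeloid markers of all 9 (39.6 CPM over 8 genes, against 20.4 to 31.002 elsewhere), and it alone had counts of S100a8 (2.71 CPM) and S100a9 (4.66 CPM), both at 0 in the other 8. Lyz2, another myeloid gene, was at 1.63 CPM there, and Csf1r was also highest in that library, on few counts. The other markers of the list did not go the same way. Cst3, which made up most of the sum, and Itgam were both higher in wild-type isotype replicate 1. Cd14 and Adgre1 were at 0 in KO-labelled replicate 1. The part of cells with such markers in the immunoproteasome values was not tested.

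The motif searched for NFE2-type factors, the core of the antioxidant response element (TGACNNNGC, both strands), was found in 5 of the 46 RefSeq promoter windows available for 42 of the members, and in 10.2% of all 32851 windows of the same length (250 bases before an annotated start). NRF1 (Nfe2l1) and NRF2 (Nfe2l2) are known to drive proteasome genes through such elements. The matches are shown for what the windows hold, on the gene's strand with the match in capitals. They lie at chr14:54618024-54618053 (Psmb5, minus strand), chr11:70525327-70525356 (Psmb6, plus), chr14:45329586-45329615 (Psmc6, plus), chr5:123228148-123228177 (Psmd9, plus) and chr11:107479278-107479307 (Psmd12, plus), from the RefSeq table of GRCm38.p6. In Psmc6 and Psmd12 the match is on the other strand. The Psmb6 stretch lies inside the span of Psmb6 in RefSeq, which starts at 70525324 from another start site, and the Psmd9 stretch lies inside the span of Psmd9 in GENCODE, so both lie within a longer annotated form of the gene.
Psmb5: acgtgaagttgTGACGTCGCggcgttgcca
Psmb6: acagaggcggactaaagagagTGACGGAGC
Psmc6: gccagccagtaGCTAAGTCAggcattgctc
Psmd9: tatctagccggTGACCCCGCccacttccaa
Psmd12: tctGCTGTGTCAcatttgcccccctcagac
None of these 5 genes was called in any of the 3 comparisons (edgeR), and their log2 fold changes on anti-CD40L ran from 0.03 (Psmb5) to 0.26 (Psmc6).

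The gamma-activated site, an interferon gamma response element (TTCNNNGAA, a palindrome) was found in 2 member windows and in 7.02% of all windows. One was that of Psmb8, 97 to 89 bases before its start, and the stretch is shown because Psmb8 is the immunoproteasome gene with the highest level (chr17:34198087-34198116, plus strand, GRCm38.p6).
Psmb8: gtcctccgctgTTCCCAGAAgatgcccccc
The stretch also falls in an exon of another Psmb8 transcript in GENCODE. The other match, in Psmg1, lay 243 to 235 bases before its start. The interferon-stimulated element core (GAAANNGAA, both strands) was in 3 member windows (Psmb3, Psmd4 and Psmd9), in 0 of the 3 immunoproteasome windows and in 7.13% of all windows. The CCAAT box (CCAAT, both strands) was in 16 member windows and 33.8% of all, and the GC box (GGGCGG, both strands) in 24 and 32.7%.

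Of the regulators and partners of the proteasome, 19 were tested, and 3 rose and 1 fell on anti-CD40L, where 2.91% of all genes were called higher and 6.46% lower. Their median log2 fold change was 0.09. Usp14, a deubiquitinase that sits on the regulatory particle, was at 91.0, 89.8 and 94.5 CPM in isotype-treated wild type, at 177, 134 and 153 CPM on anti-CD40L and at 83.1, 99.1 and 148 CPM in KO-labelled libraries. Its anti-CD40L libraries lay above all wild-type isotype libraries, and Usp14 rose by 0.75 on the log2 scale (SE 0.17; edgeR adjusted p = 0.0154). Zfand5, a proteasome-activating zinc finger protein, rose by 0.41 (SE 0.11) and Txnl1, a thioredoxin-like protein of the regulatory particle, by 0.35 (SE 0.10; edgeR adjusted p = 0.0343 and 0.0400). Nfe2l2 was at 63.7, 67.7 and 69.7 CPM in isotype-treated wild type, at 48.9, 52.9 and 52.2 CPM on anti-CD40L and at 68.7, 61.6 and 67.4 CPM in KO-labelled libraries, and it fell by 0.39 (SE 0.09; edgeR adjusted p = 0.0204). Its 3 anti-CD40L libraries were the lowest of the 9. Nfe2l1 had a log2 fold change of 0.04 (SE 0.07), the core maturation factor Pomp 0.08 (SE 0.09), the inhibitor Psmf1 0.03 (SE 0.11), the ubiquitin receptor Adrm1 0.01 (SE 0.08) and the small subunit gene Sem1 0.05 (SE 0.12), none of them called.

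Upstream of the proteasome, 24 genes for ubiquitin, its activating enzymes and delivery factors were tested, and 5 rose and 0 fell on anti-CD40L, against the same shares of all genes (2.91% and 6.46%). Their median log2 fold change was 0.10. Rps27a, one of the genes that encode ubiquitin, there fused to a ribosomal protein, was at 677, 754 and 681 CPM in isotype-treated wild type, at 976, 1191 and 1032 CPM on anti-CD40L and at 853, 1096 and 952 CPM in KO-labelled libraries. Both other groups lay above wild-type isotype, and Rps27a rose by 0.60 on anti-CD40L (SE 0.10; edgeR adjusted p = 0.00329). Cul1 and Skp1, parts of the SCF ubiquitin ligase, rose by 0.39 (SE 0.09) and 0.32 (SE 0.08), and Rad23b, a shuttle that carries ubiquitinated proteins to the proteasome, by 0.45 (SE 0.12; edgeR adjusted p = 0.0233, 0.0332 and 0.0393). Uba6, an alternative activating enzyme, rose by 0.58 (SE 0.17; edgeR adjusted p = 0.0496).

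In the libraries labelled KO, compared with wild type on the isotype antibody, 0 of 48 members were called, as were 0 of all 11256 genes (0.0%; edgeR). At an unadjusted p under 0.05 there were 649 genes and 1 member, Psmb4, a structural beta subunit, at 212, 232 and 228 CPM in isotype-treated wild type and 202, 211 and 176 CPM in KO-labelled libraries (log2 fold change -0.19, SE 0.09). By DESeq2 there were 44 called genes, by quality-weighted limma-voom 32 and by edgeR with no filter 102, and none of these were members. The members' log2 fold changes were 8 positive and 40 negative with a median of -0.08, against 0.00 over all genes, and among the 31 standard subunits 28 were negative. The groups did not overlap in 8 members that were lower (Psmb1, Psmb4, Psmd2, Psmd5, Psmd6, Psmd10, Psmd13 and Psme3ip1) and in 1 that was higher (Psme3), patterns that 7.62% and 7.61% of all genes showed. The largest log2 fold changes were 0.15 (SE 0.16) for Psmg3, 0.13 (SE 0.10) for Psma3 and 0.12 (SE 0.08) for Psme3 on the positive side, and -0.40 (SE 0.32) for Psmb9, -0.38 (SE 0.21) for Psme2b and -0.32 (SE 0.24) for Psmb10 on the negative side. KO-labelled replicate 3 was the lowest of the 9 libraries for 28 of the 48 members, against 10.9% of all tested genes. Without that replicate 14 members were positive and the median was -0.03, and without replicate 1 the counts were 8 and 40 and the median was -0.13. Regulators, ubiquitin genes and MHC class I genes also gave 0 calls.

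The third comparison, wild-type anti-CD40L against KO-labelled isotype, is also the difference between the other comparisons, and it shares its libraries with both. Its groups differ in genotype label and in antibody, and within it the parts of these cannot be told apart. Here 9 of 48 members were called higher in the anti-CD40L libraries than in the KO-labelled ones and 0 lower (edgeR). Of all genes 6.83% were called, 1.79% higher and 5.04% lower. They were the core subunits Psma1, Psmb1 and Psmb7, the regulatory particle subunits Psmd1, Psmd2, Psmd6 and Psmd14, and the chaperones Psmg1 and Psmg2. The median log2 fold change was 0.19 over the members and -0.01 over all genes, 42 members were positive, and all 31 standard subunits were, Psmd11 at 0.00. The groups did not overlap in 22 members that were higher, against 10.3% of all genes, and in none that were lower, against 15.9%.

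Psmd14 and Psma1 had the smallest adjusted p in this comparison, with log2 fold changes of 0.37 (SE 0.08) for each (edgeR adjusted p = 0.0130 and 0.0139). Psmd2, another scaffold subunit, was at 534, 536 and 548 CPM in isotype-treated wild type, at 621, 594 and 636 CPM on anti-CD40L and at 507, 501 and 486 CPM in KO-labelled libraries, from a transcript that RefSeq lists as non-coding. The 3 groups did not overlap, with anti-CD40L highest and KO-labelled lowest (log2 fold change 0.31, SE 0.07; edgeR adjusted p = 0.0151). Psmd6, a lid subunit of the regulatory particle, was at 157, 159 and 151 CPM in isotype-treated wild type, at 186, 176 and 182 CPM on anti-CD40L and at 145, 146 and 147 CPM in KO-labelled libraries, in the same order and again without overlap (log2 fold change 0.31, SE 0.07; edgeR adjusted p = 0.0153). Psmb1, a structural beta subunit, was at 179, 178 and 176 CPM in isotype-treated wild type, at 198, 191 and 207 CPM on anti-CD40L and at 170, 159 and 159 CPM in KO-labelled libraries, and also kept this order (log2 fold change 0.29, SE 0.07; edgeR adjusted p = 0.0265). The log2 fold changes were 0.32 (SE 0.08) for Psmd1, 0.36 (SE 0.09) for Psmg2, 0.31 (SE 0.08) for Psmb7 and 0.44 (SE 0.12) for Psmg1 (edgeR adjusted p = 0.0242, 0.0301, 0.0430 and 0.0493).

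Of the members called on anti-CD40L against wild type, Psma3 and Psme4 were not called against the KO-labelled libraries, where they had log2 fold changes of 0.25 (SE 0.10) and 0.41 (SE 0.13). The immunoproteasome subunits were not called either, at -0.31 (SE 0.15) for Psmb8, -0.33 (SE 0.34) for Psmb9 and -0.36 (SE 0.25) for Psmb10. Only the Psmb8/Psmb5 ratio separated these groups completely, with a log2 difference of -0.44 (exact two-sided permutation p = 0.1, adjusted 0.225). Nfe2l2 was lower by 0.36 in the anti-CD40L than in the KO-labelled libraries (SE 0.09), and Skp1 and Vcp, the unfolding ATPase that works ahead of the proteasome, were higher by 0.40 (SE 0.08) and 0.27 (SE 0.07; edgeR adjusted p = 0.0319, 0.0121 and 0.0358). Irf1 was lower by 1.13 (SE 0.25) and Irf8, a factor of the same family, by 0.71 (SE 0.12; edgeR adjusted p = 0.0156 and 0.00273). Without KO-labelled replicate 2, 0 members were called in this comparison, without anti-CD40L replicate 1 only Psmd14, and without KO-labelled replicate 1 there were 5 (Psma6, Psmb1, Psmd2, Psmd6 and Psme1). Without KO-labelled replicate 3 there were 10, of which Psmb8 was lower and 9 were higher.

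The 2 tissue-restricted core subunits were near 0. Psma8, known from the testis, had 0 counts in all anti-CD40L libraries and 0 to 4 counts in each of the others. Psmb11, the thymus-specific catalytic subunit of cortical epithelial cells, had 0 to 5 counts in 8 libraries and 11 in anti-CD40L replicate 3. Neither had enough counts for a comparison. The genes that the spelling rule takes along also showed 0 calls: Psmc3ip, a recombination cofactor, was at 4.70 to 10.1 CPM and Psme3ip1, a partner of Psme3, at 62.7 to 76.7 CPM over the 9 libraries.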

How the data were processed

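A single table was deposited, with expected counts for 42361 RefSeq transcripts that are multiples of 0.5 and carry no normalization by the authors. CASAVA 1.8.2, HISAT2 2.1.0 and mm10 are named per the submitters' processing notes, while the sources used here do not name the counting tool, strand use or treatment of multiply mapped reads. Values of overlapping or near-identical genes are therefore uncertain.

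Identifiers were given symbols from RefSeq (42203) or GENCODE vM21 (65), 93 had none, and the transcript of highest total was kept per gene. Counts were rounded to whole numbers, fractions upward, since the table was not of whole counts as the planned test assumed. After filterByExpr by group, 11256 genes were tested in edgeR 4.0.16 (R 4.3.3, limma 3.58.1) with TMM scaling and the robust quasi-likelihood F test over all 9 libraries, Benjamini-Hochberg adjusted within each comparison at 0.05. CPM uses TMM-scaled totals, and per-kilobase values use GENCODE transcript lengths. The test was also run on simulated counts, and the outcome of that run is not given here. Ratios were tested with exact permutation tests in scipy 1.17.1. Alternatives were DESeq2 1.42.0, limma-voom, other scalings, roundings and filters, only 2 groups, a replicate block and each library left out.

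Members and lists were chosen with earlier results of these data known. Genes named are the catalytic subunits, activators, chaperones, Psmd4 and Psmd14, every called member, the 3 largest log2 fold changes per direction and comparison, the called genes of each list (at most 4 per direction) and 8 fixed regulators. Uba6, called but past the limit of 4, was added after its values were seen, as was Psmb4. Some genes of the lists are not reported here. Of 9 listed columns all were mapped by name. Between replicates of a group, the Pearson chi-square per degree of freedom was 6.09 to 20.0, so libraries differed by more than counting noise. No intervals were given.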

Additional observations from a re-analysis of the deposited data

How the results depend on the processing

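On anti-CD40L against isotype, the count of called genes was 1635 by DESeq2 and 1698 without the filter, and 486 to 1342 with 1 library left out. Called members were 12 by DESeq2, 11 by limma-voom with quality weights, 9 without the filter and 0 to 7 with 1 library left out. In the KO-labelled comparison called genes were 44 by DESeq2, 32 by limma-voom with quality weights, 102 without the filter, 3 with only 2 groups and 0 to 2 with 1 library left out. Against the KO-labelled libraries called genes were 1219, 1464 and 1305 by these 3 settings, 481 with only 2 groups and 346 to 1022 with 1 library left out, and called members were 16 by DESeq2, 15 by limma-voom with quality weights, 3 with only 2 groups and 0 to 10 with 1 library left out. With a replicate block, called members were 3, 0 and 5 and called genes 954, 0 and 664 in the 3 comparisons. Deviations of same-numbered libraries from their group means correlated at -0.21 to 0.20. Between the wild-type groups these correlations were 0.20, 0.10 and 0.05. The sources used here do not give a pairing, and with 3 libraries per group these values cannot settle it. Leaving out 1 library moved these log2 fold changes across 0. On anti-CD40L they were -0.0304 to 0.1025 for Psmb5, -0.0375 to 0.0534 for Psmd4, -0.0805 to 0.0295 for Psmd5 and -0.1048 to 0.0409 for Psme2; Psmd4 was 0.0036 with upper quartile scaling and Psmd5 0.0063 by limma-voom with quality weights. In the KO-labelled comparison they were -0.3418 to 0.0170 for Psmb8 and -0.216 to 0.0671 for the Psmb8/Psmb5 ratio. Against the KO-labelled libraries they were -0.6215 to 0.1599 for Psmb9, -0.1191 to 0.1960 for Psme2, -0.0642 to 0.4147 for Psme2b, -0.0083 to 0.0609 for Psme3 and -0.0862 to 0.1328 for Psmg3. The cause was not tested. Psmb9 and Psmb10 had at most 203 and 280 counts per library, and the part of these counts in their spread was not tested.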
